A study of Mus musculus with 6 samples.

Results

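The genes described here are 10 regulators of the G1 phase of the cell cycle: the D-type cyclin genes Ccnd1, Ccnd2 and Ccnd3, their kinase gene Cdk4, the CDK inhibitor genes Cdkn1a, Cdkn1b, Cdkn2c and Cdkn2d, and the pocket protein genes Rb1 and Rbl2. Every array feature that the platform annotation ties to 1 of these symbols was taken, which gave 20 probes of 16281, for 10 genes of 10698 with a symbol. The RNA came from RAW 264.7 cells, a mouse macrophage line, and was total RNA of the whole culture. Treated cells had received lipopolysaccharide (LPS), the endotoxin of Gram-negative bacteria, at 100 ng/ml together with LPS-binding protein at 100 pM for 8 h, and the other cells had been kept untreated for the same 8 h. Each of 6 two-colour arrays held RNA of both kinds. There were 3 numbered sets of 2 arrays, 1 with the treated RNA labelled with Cy5 and 1 with it labelled with Cy3, and these are called the Cy5 and the Cy3 orientation below. A single cell line is a limited model, since it is itself a dividing tumour line, and the labels do not say whether the sets were separate cultures. The spread behind each p-value is that between sets, and it may be technical.

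As background, D-type cyclins bind CDK4 and CDK6 when growth factors are present, and these kinases phosphorylate the pocket proteins, which otherwise hold E2F transcription factors in check. Inhibitors of the INK4 family, such as p18 from Cdkn2c and p19 from Cdkn2d, bind CDK4 and CDK6 directly, whereas p21 from Cdkn1a and p27 from Cdkn1b bind cyclin-CDK complexes and block CDK2. LPS is known to stop the proliferation of macrophages that depend on colony-stimulating factor.

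Each value below is the log2 ratio of treated over untreated RNA on an array, so it is a difference and not a level, and values of different probes are not levels set against each other. The direction is a likely one. The deposited table does not state the numerator, which was taken to be Cy5, since the labels give the name test to the RNA in Cy5 and control to that in Cy3. Values of exactly 0 were taken as not measured, the 2 arrays of a set were averaged, and the mean of the set means was tested against 0 with limma, with Benjamini-Hochberg adjustment over all 14343 probes tested. Calls have an adjusted p under 0.05. In bulk RNA, fewer cells of a type and less RNA per cell cannot be told apart. In treated cells the LPS response genes Tnf, Il1b, Il6 and Nos2 had ratios of 1.89, 3.85, 3.26 and 1.17 under this reading, and all 4 rose, each being higher on 6 of 6 arrays. Of 10 macrophage marker symbols, 8 were on the array, and all 8 had values on all 6 arrays. Their ratios ran from -0.19 to 2.11, and 5 rose and 1 fell. Ratios give no level by which the cell type could be checked. Of 14 marker genes of fibroblasts, lymphocytes and epithelia on the array, 9 had values on all 6 arrays, with ratios from -0.13 to 0.21 and 1 call (Pdgfra, 0.21 ± 0.14, adjusted p = 0.0447 in limma). On single arrays Pdgfra ran from -0.66 to 0.86, with 4 ratios above 0 and 2 below, and its SD is over set means.

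Of the 20 probes, 18 had a value on all 6 arrays and 19 could be tested. In treated cells 12 of the 19 were called, against 32.7% of all probes tested. Of these, 6 rose, against 17.1% of all probes, and 6 fell, against 15.6%. The other 7 did not pass. The rises were in Cdkn1a, Ccnd2 and 1 probe of Ccnd1, and the falls were in both probes each of Cdkn2c, Cdkn2d and Rbl2. Of the 12 called probes, 11 had the same sign on 6 of 6 arrays. The calls were made from these same values, so agreement in sign is partly built in. The share among all called probes was not counted. SDs over the set means ran from 0.0012 to 0.14 for the 19 probes, with a median of 0.07, against a median of 0.09 over all probes tested. Averaged per gene over the probes with 6 values, 7 members were called, against 37.9% of all 9192 genes tested. Of the 7, 3 rose, against 19.1% of all genes, and 4 fell, against 18.8%. The fourth gene that fell, Rb1, passed per gene and missed the threshold per probe. Without set 3, 2 member genes rose and 3 fell, and the count called over all genes was lower too, as given further below. The median over the 10 genes was -0.03, against -0.01 over all genes tested.

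**Figure D1:**
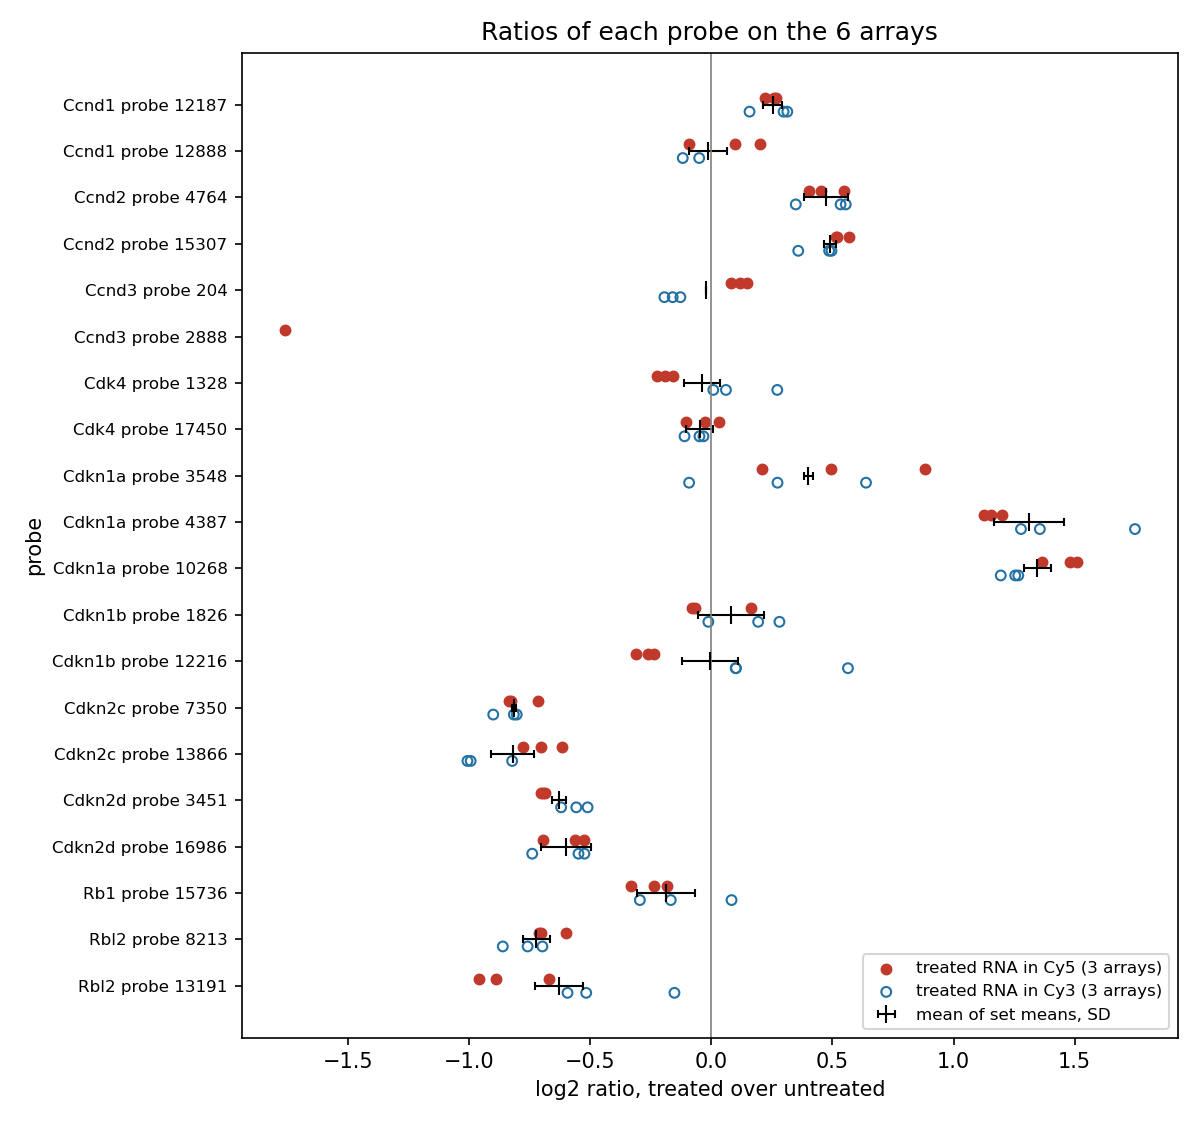
Log2 ratio of treated over untreated RNA (horizontal axis) for each of the 20 probes (vertical axis), with filled points for the 3 arrays of the Cy5 orientation, open points for the 3 arrays of the Cy3 orientation, and a black mark with its SD for the mean of the set means. All points of Ccnd2 lie right of 0 and all points of Cdkn2c, Cdkn2d and Rbl2 lie left of it, while the points of Ccnd3 probe 204 fall on either side of 0 by orientation.

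Among the D-type cyclins, Ccnd2 rose, Ccnd1 rose on 1 of its probes, and Ccnd3 did not pass. Ccnd2 encodes the D cyclin that responds to growth signals in many haematopoietic cells. Its probe 4764 had ratios of 0.45, 0.40 and 0.55 in sets 1 to 3 in the Cy5 orientation, and 0.53, 0.35 and 0.56 in the Cy3 orientation. Every one of these ratios was above 0, and the orientations overlapped. The mean was 0.47 ± 0.09 (SD, n = 3 sets; limma's adjusted p = 0.00127). Probe 15307 of the same gene had 0.52, 0.57 and 0.52 in the Cy5 orientation, and 0.49, 0.36 and 0.50 in the Cy3 orientation, with a mean of 0.49 ± 0.02 (limma's adjusted p = 0.000566). The 2 probes differed by 0.02 ± 0.07 (probe 15307 minus probe 4764), less than 1 SD. Per gene, Ccnd2 was 1.4-fold higher in treated cells.

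Ccnd1, the D cyclin gene that growth factors and the macrophage colony-stimulating factor receptor induce, was represented by 2 probes tied to the same sequence record, and these gave different ratios. Probe 12187 had 0.27, 0.26 and 0.22 in the Cy5 orientation and 0.30, 0.16 and 0.31 in the Cy3 orientation. Its mean was 0.25 ± 0.04 (n = 3 sets; limma's adjusted p = 0.00918), a 1.19-fold rise, and the adjusted p was 0.0775 without set 3. Probe 12888 had 0.10, -0.09 and 0.20 in the Cy5 orientation, and, in sets 2 and 3, -0.05 and -0.12 in the Cy3 orientation, its value in set 1 being exactly 0. Ratios of this probe lay on both sides of 0, and the mean of its 2 complete sets was -0.01 ± 0.08 (95% interval -0.19 to 0.16, limma's adjusted p = 0.902). In the 2 sets that both probes covered, probe 12187 minus probe 12888 was 0.28 and 0.23. The call for Ccnd1 thus rests on 1 of its probes, and which of them is nearer the transcript's change was not tested.

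Ccnd3, the D cyclin of lymphoid and many differentiating cells, had 1 probe that could be tested. Probe 204 had ratios of 0.12, 0.15 and 0.08 in the Cy5 orientation, and -0.16, -0.19 and -0.13 in the Cy3 orientation. All 3 arrays of each orientation had one sign, opposite in the other, and the set means lay at -0.02 in each set. The mean was -0.02 ± 0.0012 (95% interval -0.14 to 0.09, limma's adjusted p = 0.759). Its small SD is that of set means in which opposite values were averaged. The second probe, 2888, was listed at exactly 0 on 5 arrays and had -1.76 on the Cy5 array of set 1. It entered no test, because no set had a value in both orientations.

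Between genes of the family, Ccnd2 minus Ccnd1 was 0.21, 0.21 and 0.26 in sets 1 to 3, and Ccnd2 minus Ccnd3 was 0.52, 0.44 and 0.55. The order Ccnd2, Ccnd1, Ccnd3 was the same in each of the 3 sets, with probe 12187 standing for Ccnd1 and probe 204 for Ccnd3. With probe 12888 the order of Ccnd1 and Ccnd3 was not constant. That probe lay at -0.07 in set 2 and 0.04 in set 3, against -0.02 in each for probe 204. An exact permutation test over 3 sets cannot go below p = 0.25 (two-sided), so the differences between genes are given without a test.

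Cdk4, which encodes the catalytic partner of the D cyclins, did not pass on either probe. Probe 1328 had ratios of -0.23, -0.19 and -0.16 in the Cy5 orientation and 0.01, 0.27 and 0.06 in the Cy3 orientation, so that the sign differed by orientation. Its mean was -0.04 ± 0.07 (limma's adjusted p = 0.623). Probe 17450 ranged from -0.11 to 0.03 over the 6 arrays, with a mean of -0.05 ± 0.05 (limma's adjusted p = 0.512). The 95% interval of the gene's mean ran from -0.16 to 0.07. It reflects only the spread of the set means, in which the orientations were averaged. Probe 1328 had a mean of -0.19 in the Cy5 orientation and 0.11 in the Cy3 orientation. Myc, whose product is a transcription factor that binds E-boxes and acts on CDK4 in human cells, rose by 3.66 ± 0.46 in the same RNA (limma's adjusted p = 2.91e-05). The 250 bases before the RefSeq start of Cdk4 are shown here because they hold 4 copies of the E-box CACGTG (in capitals; GRCm38.p6, chr10:127063285-127063534, plus strand). The 4 copies start 172, 118, 98 and 11 bases before the start site.
Cdk4: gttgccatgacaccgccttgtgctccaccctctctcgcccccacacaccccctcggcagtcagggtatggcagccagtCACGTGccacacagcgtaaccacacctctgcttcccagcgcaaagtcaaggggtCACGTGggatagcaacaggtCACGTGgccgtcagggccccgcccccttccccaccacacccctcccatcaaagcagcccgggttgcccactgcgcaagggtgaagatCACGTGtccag
Among all 32851 RefSeq windows of the same length, 6.02% held at least 1 copy of this motif, which reads the same on both strands, and 7 windows (0.0213%) held 4 or more. A match describes these letters and shows neither binding nor use of the site.

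With probes averaged per gene, Cdkn1a had the largest ratio of the 10 genes, and its 3 probes, which were tied to 3 sequence records, all rose. It encodes p21, an inhibitor of cyclin-CDK complexes that p53 and other factors induce. Probe 10268 had 1.37, 1.48 and 1.51 in the Cy5 orientation, and 1.20, 1.27 and 1.25 in the Cy3 orientation. Its mean was 1.35 ± 0.06 (n = 3 sets; limma's adjusted p = 1.33e-05), or 2.54-fold. Probe 4387 had 1.15, 1.20 and 1.13 in the Cy5 orientation and 1.36, 1.75 and 1.28 in the Cy3 orientation, with a mean of 1.31 ± 0.14 (limma's adjusted p = 4.62e-05), or 2.48-fold. These probes were above 1 on every array, and the orientation with the higher values was Cy5 for probe 10268 and Cy3 for probe 4387. Probe 3548 was smaller and more scattered, with 0.88, 0.21 and 0.49 in the Cy5 orientation and -0.09, 0.64 and 0.27 in the Cy3 orientation. Its set means were 0.40, 0.42 and 0.38, which gave a mean of 0.40 ± 0.02 (limma's adjusted p = 0.00128). That small SD is over set means, each of which averaged a high and a low value. With the 6 arrays fitted separately, a dye term and the set number as a fixed block, the adjusted p of this probe was 0.134. Probe 10268 minus probe 3548 was 0.89, 0.95 and 1.0 in sets 1 to 3, so the ratio of Cdkn1a differed by probe. Per gene, the mean was 1.02 ± 0.06, or 2.03-fold, and it was 0.40 when the probe of smallest spread stood for the gene. Under that choice Ccnd2, at 0.49, was the higher of the pair.

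Cdkn1b, which encodes p27, the inhibitor that rises in resting cells, did not pass. Its probe 12216 had ratios of -0.26, -0.31 and -0.24 in the Cy5 orientation and 0.10, 0.56 and 0.10 in the Cy3 orientation. The orientations thus had opposite signs, and the mean was -0.01 ± 0.12 (limma's adjusted p = 0.948). Probe 1826 ranged from -0.08 to 0.28, with 3 values on each side of 0 and a mean of 0.08 ± 0.14 (limma's adjusted p = 0.403). Per gene the 95% interval ran from -0.09 to 0.16. It reflects only the spread of the set means, in which the orientations were averaged. The mean of the gene was -0.13 in the Cy5 orientation and 0.20 in the Cy3 orientation. Cdkn1a minus Cdkn1b was 1.04, 1.0 and 0.91 in the 3 sets.

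Both INK4 genes among the members fell, on both probes each and on every array. Cdkn2c, which encodes p18, had ratios of -0.83, -0.71 and -0.83 in the Cy5 orientation and -0.82, -0.90 and -0.80 in the Cy3 orientation on probe 7350. The mean of this probe was -0.82 ± 0.01 (n = 3 sets; limma's adjusted p = 7.06e-05). On probe 13866 it had -0.78, -0.70 and -0.62 in the Cy5 orientation and -1.01, -0.99 and -0.82 in the Cy3 orientation, with a mean of -0.82 ± 0.09 (limma's adjusted p = 0.000138). The 6 ratios of probe 13866 did not overlap between orientations, whereas those of probe 7350 did, and the means of the 2 probes differed by less than 0.01. Per gene, Cdkn2c was 1.76-fold lower in treated cells.

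Cdkn2d, which encodes p19 of the same family, had ratios of -0.68, -0.70 and -0.70 in the Cy5 orientation and -0.51, -0.62 and -0.56 in the Cy3 orientation on probe 3451, with a mean of -0.63 ± 0.03 (limma's adjusted p = 0.000219). On probe 16986 the ratios were -0.69, -0.56 and -0.53 in the Cy5 orientation, and -0.74, -0.55 and -0.52 in the Cy3 orientation, with a mean of -0.60 ± 0.10 (limma's adjusted p = 0.000573). All 12 ratios of the gene were below -0.50, and per gene it was 1.53-fold lower in treated cells. Cdkn2d minus Cdkn2c was 0.20, 0.22 and 0.19 in sets 1 to 3, so the ratio of Cdkn2c was the lower one in each set.

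Promoter windows are shown for Cdkn1a, which rose, and for Cdkn2c and Cdkn2d, which fell together. Each is the 250 bases before a RefSeq start in GRCm38.p6, with the GC box GGGCGG in capitals on either strand. The window of Cdkn1a is chr17:29093519-29093768 (plus strand), that of Cdkn2c is chr4:109666757-109667006 (minus strand), and that of Cdkn2d is chr9:21291210-21291459 (minus strand). Cdkn1a and Cdkn2c have 2 windows each, of which the one with a GC box is shown.
Cdkn1a: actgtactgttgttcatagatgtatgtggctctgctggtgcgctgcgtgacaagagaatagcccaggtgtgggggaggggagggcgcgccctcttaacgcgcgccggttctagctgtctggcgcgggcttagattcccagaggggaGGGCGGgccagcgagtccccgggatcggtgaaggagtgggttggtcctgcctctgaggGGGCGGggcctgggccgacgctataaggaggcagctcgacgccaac
Cdkn2c: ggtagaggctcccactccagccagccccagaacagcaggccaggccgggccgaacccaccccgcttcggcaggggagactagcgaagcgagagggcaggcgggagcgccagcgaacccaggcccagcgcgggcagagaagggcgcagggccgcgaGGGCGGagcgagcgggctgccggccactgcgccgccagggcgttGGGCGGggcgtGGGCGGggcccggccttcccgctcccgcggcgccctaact
Cdkn2d: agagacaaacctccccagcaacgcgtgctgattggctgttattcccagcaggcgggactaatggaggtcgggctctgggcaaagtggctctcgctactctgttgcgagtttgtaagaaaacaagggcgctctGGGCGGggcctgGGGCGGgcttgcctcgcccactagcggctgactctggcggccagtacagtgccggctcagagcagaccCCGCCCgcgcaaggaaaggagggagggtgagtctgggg
The windows held 2, 3 and 3 GC boxes. Of all RefSeq windows 32.7% held at least 1, so the motif is a common one and is seen here in a gene that rose and in genes that fell. RefSeq windows were at hand for 7 of the 10 genes, 10 windows in all, of which 7 held a GC box. Searched on both strands, the E2F motif TTTNNCGC was in 0 of the 10 and in 4.28% of all windows. The cell cycle homology motif TTTGAA was found in 1 of the 10, that of Rbl2, and in 16% of all windows. No match says only that these letters are not in these 250 bases.

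The pocket protein gene Rbl2 fell, and Rb1 lay at the threshold. Rbl2 encodes p130, the pocket protein that is most abundant in resting cells and that recruits E2F factors into repressor complexes. Its probe 8213 had ratios of -0.71, -0.70 and -0.60 in the Cy5 orientation and -0.86, -0.70 and -0.76 in the Cy3 orientation, with a mean of -0.72 ± 0.06 (n = 3 sets; limma's adjusted p = 0.000157). Probe 13191 had -0.89, -0.96 and -0.67 in the Cy5 orientation and -0.59, -0.15 and -0.52 in the Cy3 orientation. This probe was lower on every array of the Cy5 orientation than on any of the Cy3 orientation, and its mean was -0.63 ± 0.10 (limma's adjusted p = 0.000445). In the Cy3 orientation alone, its mean was -0.42 (adjusted p = 0.0669). Per gene, Rbl2 was 1.6-fold lower in treated cells.

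Rb1, the retinoblastoma gene, had a single probe, with ratios of -0.33, -0.24 and -0.18 in the Cy5 orientation and -0.29, 0.08 and -0.17 in the Cy3 orientation. It was lower on 5 of 6 arrays, with a mean of -0.19 ± 0.12, or 1.14-fold lower. The same values gave an adjusted p of 0.0616 over all probes and of 0.0486 over all genes in limma. Without set 1 the mean was -0.13 and the adjusted p per gene 0.146, and without set 3 the adjusted p per gene was 0.177. Rbl2 minus Rb1 was -0.45, -0.55 and -0.46 in the 3 sets.

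The difference between the Cy5 and the Cy3 orientation was tested with limma over 14437 probes, of which 4.53% passed, 2.41% with the higher ratio in the Cy5 orientation and 2.12% with the lower. These 654 probes became 1 with the set number as a replicate block and 262 with zeros kept as values. Among the 19 member probes 0 passed after adjustment. An unadjusted p under 0.05 was found for 6 of the 19, near the share over all probes, 28.5%. In 3 member probes, 1 each of Ccnd3, Cdk4 and Cdkn1b, all 3 arrays of one orientation had a sign opposite to the other 3. How many of all probes split in this way was not counted, so whether 3 is more than usual is not known. None of the 3 was called, and opposite signs average towards 0 in a set mean. The largest such difference was that of Cdkn1b probe 12216, at -0.53 (Cy5 minus Cy3). In the 12 called probes the size of the difference had a median of 0.12, against 0.18 over all probes in the dye fit. The latter include probes that were not called, so the sets are unlike, and a median over all called probes was not taken.

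**Figure D2:**
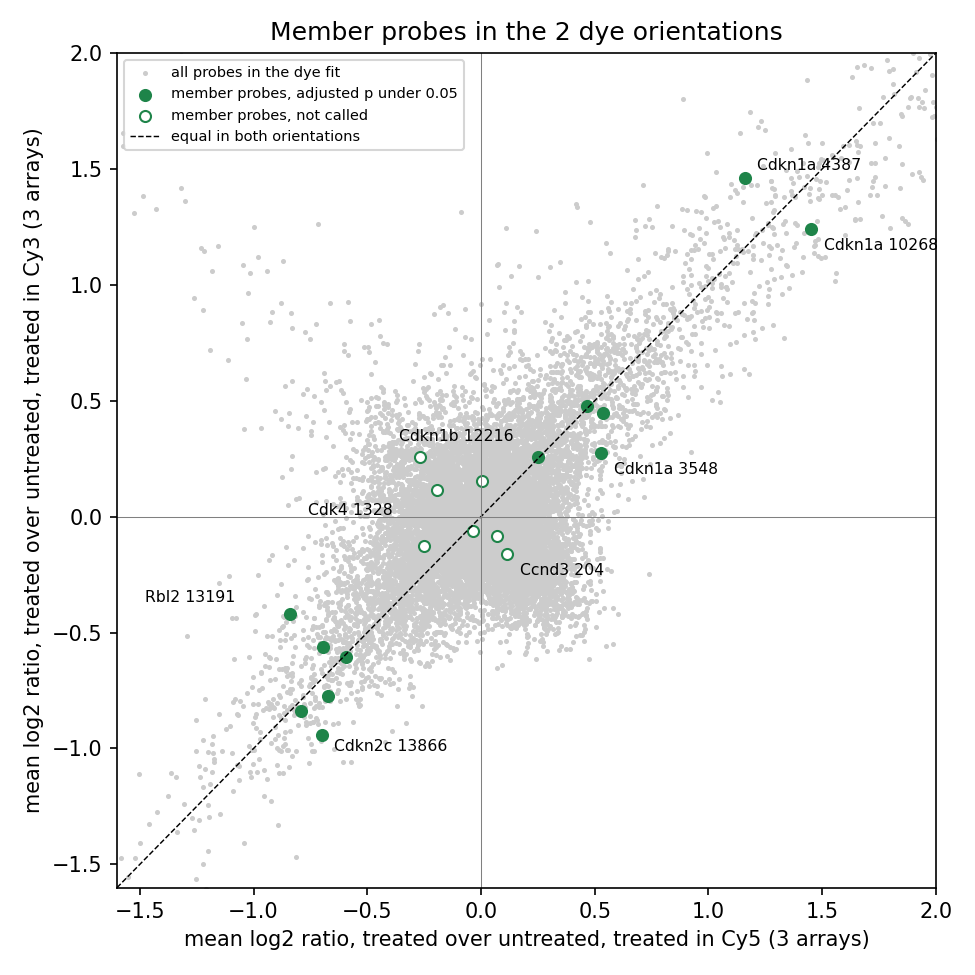
Mean log2 ratio of treated over untreated RNA on the 3 arrays of the Cy5 orientation (horizontal axis) against the mean on the 3 arrays of the Cy3 orientation (vertical axis), with all probes in grey, called member probes filled and other member probes open, and probes beyond the axes not drawn. The 12 called probes lie below 0 on both axes or above 0 on both axes. Some of them lie off the dashed line of equality, such as Rbl2 probe 13191 (-0.84 in the Cy5 and -0.42 in the Cy3 orientation). Ccnd3 probe 204, Cdk4 probe 1328 and Cdkn1b probe 12216 have opposite signs on the axes.

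The genes around the members were described from lists that name the other parts of the pathway. Of 11 other cyclins, kinases and activators of G1 and later phases, all measured, 2 rose and 5 fell. The shares of all genes tested were 19.1% and 18.8%, and the median was -0.08 against -0.01 over all genes. The count that rose was near the share over all genes. Ccna2, the cyclin A gene, fell by 1.21 ± 0.16 on the log2 scale, Cdk1, the mitotic kinase gene, by 0.85 ± 0.09, and Cdk2, the kinase of S phase entry, by 0.35 ± 0.07. Cdk6, the other partner of the D cyclins, and Ccne1, a cyclin E gene, were picked out after their values were seen. They had ratios of 0.07 ± 0.07 and -0.0043 ± 0.10 (limma's adjusted p = 0.307 and 0.961). Their SDs are over set means in which opposite values were averaged. Cdk6 had a mean of -0.12 in the Cy5 orientation and 0.27 in the Cy3 orientation, and Ccne1 had -0.21 and 0.20. Of the 4 other CDK inhibitor genes, 1 fell and 0 rose, against the same shares. That gene was Cdkn3, a phosphatase gene of the cell cycle, at -0.52 ± 0.06. The remaining 3, also picked out afterwards, were the INK4 genes Cdkn2a (0.04 ± 0.10) and Cdkn2b (-0.12 ± 0.13) and the p57 gene Cdkn1c (0.08 ± 0.08), none of which passed in limma (adjusted p of 0.554, 0.170 and 0.238; unadjusted p under 0.05 in 0 of the 3).

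Of 8 measured genes for E2F and DP factors, the pocket protein p107, B-Myb and the MuvB core, 5 fell and 0 rose. The shares of all genes were 18.8% and 19.1%, and the median of the list was -0.36. The measured genes of the MuvB core, Lin37 (0.04 ± 0.09) and Rbbp4 (0.16 ± 0.23), were picked out afterwards. Neither of them passed (limma's adjusted p = 0.633 and 0.205). Mybl2, which encodes B-Myb, stood at -0.84 ± 0.07, E2f1 at -0.61 ± 0.08 and Tfdp1, the dimer partner gene, at -0.49 ± 0.11. Rbl1, the p107 gene and the remaining pocket protein gene, was named for its kinship with Rb1 and Rbl2 and stood at -0.45 ± 0.11 (limma's adjusted p = 0.00161). Of 24 measured E2F target genes of G1 and S phase, 22 (91.7%) fell and 0 rose, against 18.8% of all genes tested that fell, and the median was -0.42. Tk1, the thymidine kinase gene, fell by 1.51 ± 0.08 on the log2 scale, Rrm2, a ribonucleotide reductase subunit gene, by 0.81 ± 0.15, and Rfc4, a clamp loader gene, by 0.77 ± 0.11.

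**Figure D3:**
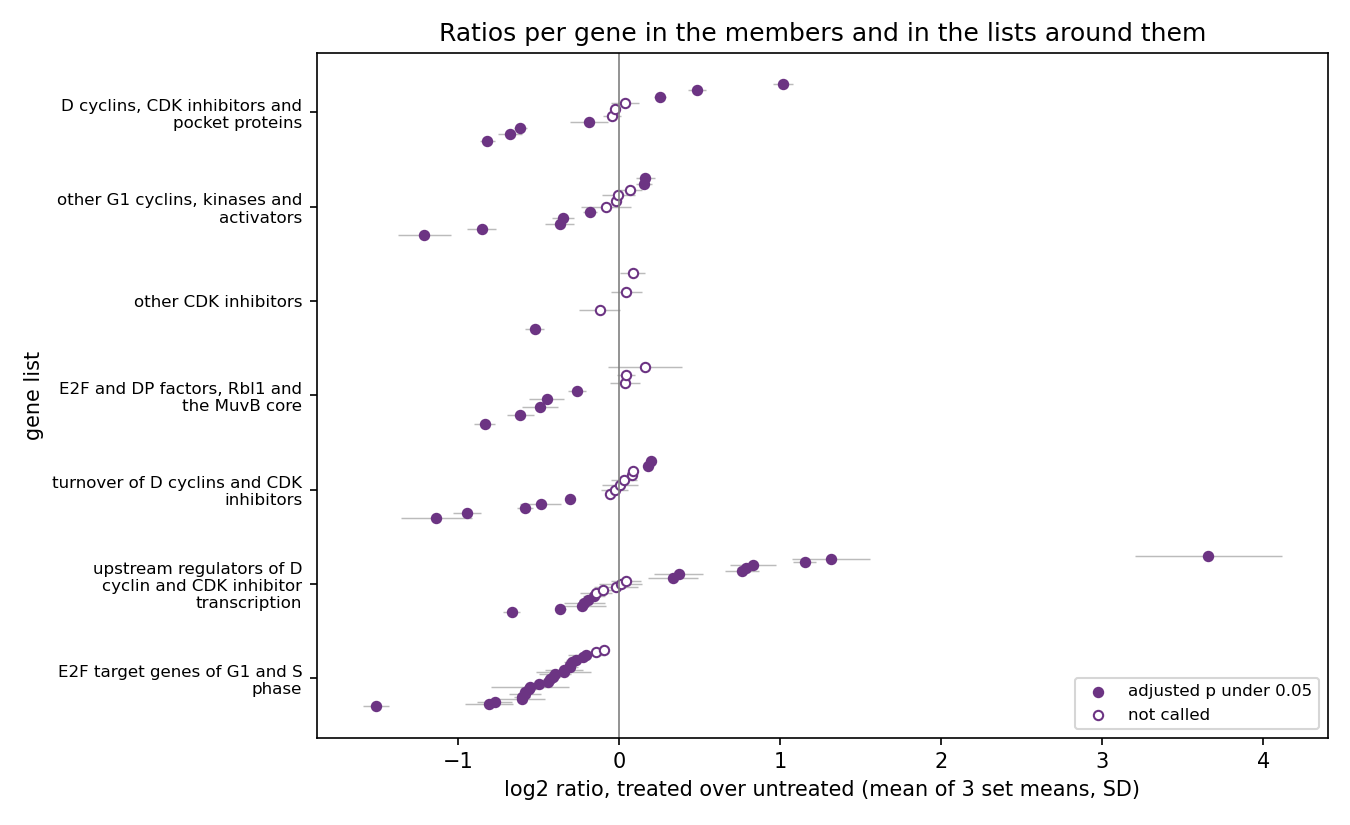
Log2 ratio of treated over untreated RNA per gene (horizontal axis; mean of 3 set means, bars SD) for the 10 members and for 6 lists of genes around them (vertical axis), with filled points for an adjusted p under 0.05. The 24 E2F target genes all lie left of 0, whereas the members spread from -0.82 (Cdkn2c) to 1.02 (Cdkn1a).

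By the distance between the 6 array ratios, the genes most like Cdkn1a among 8869 compared were Il15ra, Naa20 and Pim2, with root mean square differences of 0.08, 0.09 and 0.10 over the 6 arrays. Those most like Cdkn2c were Brd3, Spc24 and Cenph, at 0.06, 0.07 and 0.07. These genes share arrays and dye orientation with the members, and the distances describe these ratios only.

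**Figure D4:**
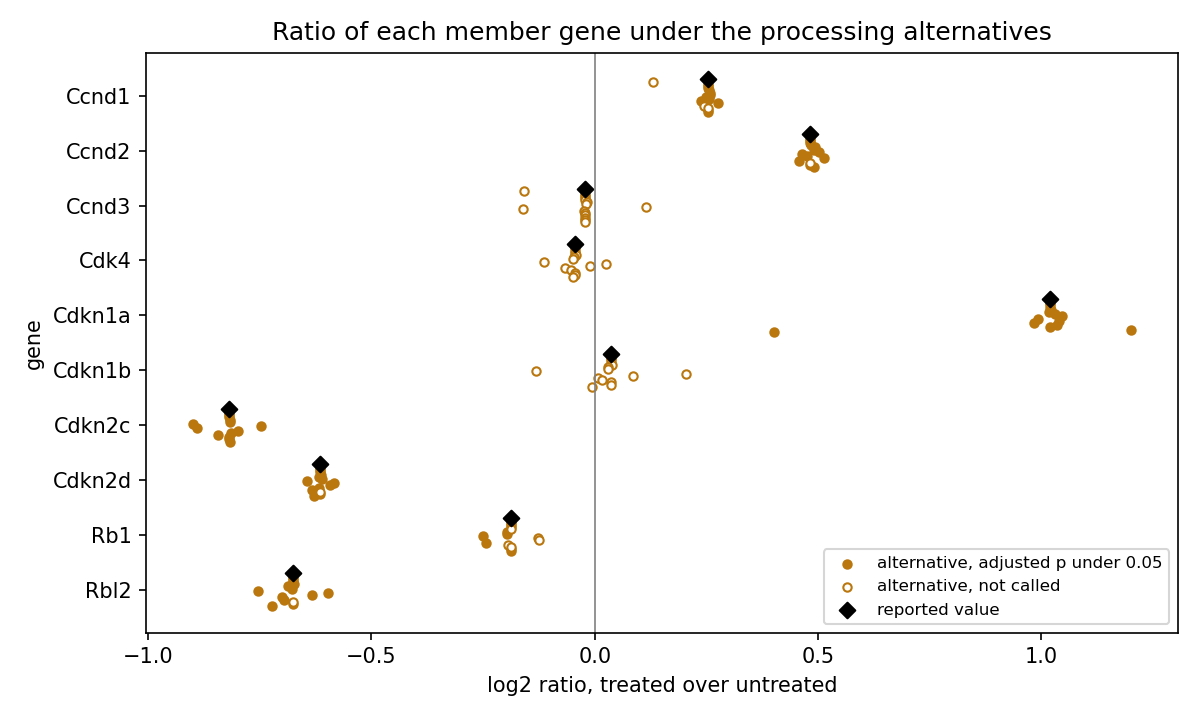
Log2 ratio of treated over untreated RNA (horizontal axis) for each of the 10 member genes (vertical axis), with a diamond for the reported value and circles for the alternatives in processing, filled where the adjusted p was under 0.05. Cdkn1a stays right of 0 and Cdkn2c left of it with filled circles in each alternative drawn, while the circles of Ccnd3, Cdk4 and Cdkn1b lie on both sides of 0.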

How the data were processed

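The authors deposited a log2 ratio for every feature of every array. That the base is 2 was inferred from the largest value, 6.643856, which is log2 of 100. No scanner software, background correction or dye normalization is named in the sources used here, and intensities were not used, so dim features could not be filtered and precision can be described only by the number of arrays. On each array 1328 to 2262 features (8.16% to 13.9%) were exactly 0. As deposited, arrays of opposite orientation correlated with r of -0.828 to -0.613 over the 12798 features with 6 values. The line is called 264.7 in 42 places of the labels and 264.4 in 6.

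The sign of every ratio in the Cy3 orientation was turned. Both arrays of a set had to have a value, and at least 2 set means were needed for a test (lmFit and eBayes, limma 3.58.1, R 4.3.3). Every adjusted p comes from limma. Intervals are limma's 95% intervals. A set was counted as 1 replicate, since its 2 arrays may carry the same RNA extracts. Symbols came from the platform annotation. Of 13738 features with 1 symbol, 13694 matched RefSeq. Per gene, probes with 6 values were averaged. The procedure was tested on simulated arrays of 12798 probes. It called 0% of log2 changes of 0.25, 56% of 0.5, 76% of 1 and 100% of 2. Of 121 calls, 5 were false. These arrays held 50 changed probes per size, far fewer than were called in the data, so the shares apply to that setting. Promoter windows are RefSeq's, GRCm38.p6, and the motifs were chosen after the ratios were known.

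The members and lists were chosen with earlier results of these data known. Every probe of a member is named. Per list, genes that were called and had one sign on all 6 arrays could be named, up to 3 in each direction by size. Other names are marked as picked out afterwards. Alternatives covered zeros, the replicate unit, normalization, orientation, sets and probe averaging.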

Additional observations from a re-analysis of the deposited data

Results flagged for a closer look

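Cdkn1a probe 4387 had 1.75 on the set 2 array of the Cy3 orientation, farther above the other 5 arrays than Dixon's limit for 6 values allows. Chance gives such a gap in about 1 of 20 groups.

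In 3 probes the effect of treatment had opposite signs in the dye orientations on all arrays. The difference, Cy5 minus Cy3, was 0.28 for Ccnd3 probe 204 (adjusted p = 0.0640 in limma's dye term), -0.31 for Cdk4 probe 1328 (adjusted p = 0.0947) and -0.53 for Cdkn1b probe 12216 (adjusted p = 0.0773). None passed after adjustment, and how many of all probes split in this way was not counted.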

How the results depend on the processing

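Cdkn1a and Cdkn2c kept their direction and their call per gene in all 15 alternatives. Ccnd2, Cdkn2d and Rbl2 did so in 14, the exception being the test against a change of 1.5-fold. That test left 649 probes and 418 genes called in all, with 2 member probes and 1 member gene higher and 1 member probe and 1 member gene lower. Ccnd1 per gene lost its call with zeros kept (0.13, adjusted p = 0.091), without set 3 (adjusted p = 0.0619) and against 1.5-fold, and Rb1 per gene lost its own in 6 of 15. Leaving out each set in turn gave 2956 to 4822 called probes and 2113 to 3371 called genes. The lowest counts were those without set 3, and the cause was not tested.

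With the set number as a fixed replicate block, 4961 probes and 3649 genes were called, of which 5 member probes and 3 member genes were higher and 7 and 4 lower. In the deposited ratios, deviations of same-numbered arrays correlated at 0.256, 0.212 and 0.0999. Those of differently numbered arrays correlated at -0.297 to 0.112. With the Cy3 sign turned, as in the fits, the same-numbered values were -0.256, -0.212 and -0.0999. In the deposited ratios, the same-numbered values of sets 1 and 2 lay above those of differently numbered arrays. That of set 3 lay within their range. The correlation within sets that limma estimated in the turned ratios was 0.124 per probe and 0.118 per gene. Whether same-numbered arrays carried the same RNA extracts was not tested. The block took the call from Cdkn1a probe 3548. The Rb1 probe gained a call in 5 of 15 alternatives, with adjusted p of 0.045 with the block, 0.0432 with separate arrays and no block, 0.0457 with quantile normalization, 0.0375 in the Cy5 orientation alone and 0.00874 without set 2. Probes whose dye term passed numbered 262 with zeros kept and 1 with the replicate block, against 654 as reported.

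Signs changed only among members that were not called in the reported fit. Ccnd1 probe 12888 was 0.0067 with zeros kept, 0.023 with set means from whichever array was measured and 0.069 in the Cy5 orientation alone. In the Cy5 orientation alone Ccnd3 probe 204, and so Ccnd3 per gene, was 0.12 and Cdkn1b per gene -0.13, while Cdkn1b probe 12216 passed as lower (-0.27, adjusted p = 0.0239). In the Cy3 orientation alone Cdk4 probe 1328 was 0.11, Cdk4 per gene 0.025 and Cdkn1b probe 12216 was 0.26. Leaving out each set in turn gave -0.073 to 0.029 for the last, and Cdkn1b per gene was -0.0070 with the probe of smallest spread. The cause of these changes was not tested. No scaling moved the median of all probes by over 0.1.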

Other observations

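Of 13 measured genes for the turnover of D cyclins and CDK inhibitors, 2 rose and 5 fell in treated cells, against 19.1% and 18.8% of all genes tested, and the median was -0.03, against -0.01 over all genes. Usp2, a deubiquitinase that in human cells stabilises cyclin D1, stood at -1.13 ± 0.22 (SD, n = 3 sets) and Fbxo31, an F-box protein gene linked to cyclin D1 degradation in human cells, at -0.94 ± 0.09. Skp2, whose product marks p27 for degradation, stood at -0.58 ± 0.05. Gsk3b, the gene of a kinase that phosphorylates cyclin D1, rose by 0.20 ± 0.03 and Fbxo4 by 0.18 ± 0.03. These small SDs are over set means. Gsk3b had a mean of 0.29 in the Cy5 orientation and 0.10 in the Cy3 orientation, and Fbxo4 had 0.06 and 0.30.

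Of 19 measured upstream regulators of D cyclin and CDK inhibitor transcription, 8 rose and 6 fell, against 19.1% and 18.8% of all genes tested, with a median of 0.01. Besides Myc, the largest rises were those of Mxd1, whose product competes with MYC for MAX (1.32 ± 0.24), and Stat3 (1.15 ± 0.07). The Myc antagonist gene Mxi1 stood at -0.67 ± 0.05, Stat5b at -0.36 ± 0.03 and Csf1r, the receptor gene for macrophage colony-stimulating factor, at -0.19 ± 0.06. The SDs are over set means, and Stat5b had a mean of -0.60 in the Cy5 orientation and -0.12 in the Cy3 orientation.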
